A study of Mus musculus with 15 samples.

Results

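The cyclin-dependent kinase inhibitor p21 (Cdkn1a), the 3 Gadd45 genes and the p53 targets Mdm2 and Ccng1 were followed in the mouse heart over 12 h with and without aldosterone, the adrenal mineralocorticoid. The 6 genes were taken by their symbols, through every probe set annotated with that single symbol, which gave 13 of the 45101 probe sets on the array. Cdkn1a had 2 probe sets, Gadd45a 1, Gadd45b 3, Gadd45g 1, Mdm2 3 and Ccng1 3. Of the 13, 10 had a mean signal at or above the median of all signals (526.7) and entered the tests, with at least 1 probe set for each of the 6 genes. The other 3 (1 each of Cdkn1a, Gadd45b and Mdm2) were dimmer and are given as values. For each gene, probe sets are called the lead, the second and the third in the order of their mean signal, and the plots give their identifiers. The 6 genes are among 18194 with a probe set of a single symbol.

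Whole hearts were profiled on 15 arrays. One array came from a heart at 0 h without an injection, 7 control arrays from hearts at 0.5, 1, 2, 3, 4, 5 and 12 h, and 7 arrays from hearts of aldosterone-injected mice at the same times. The labels used here give no dose, strain, sex or age, nor what the timed controls received. They leave it unsaid if one heart or several pooled hearts went on an array, so p-values cover array-to-array spread alone, part of which may be technical. Arms were compared over the 7 times as replicates, and times over their 2 arrays, 1 from each arm. All 6 cardiomyocyte markers checked were above the filter. Lung epithelium transcripts were high on both arrays at 1 h, with a summed signal over 6 genes of 178673 in control and 408537 with aldosterone. The other 13 arrays had 1376.4 to 5313.7. The Gapdh 3′/5′ signal ratio, a measure of how far labelled RNA reaches towards the 5′ end, ran from -0.23 to 3.92 on the log2 scale. It differed between the arms most at 1 and 2 h, by 2.54 and 3.00, higher with aldosterone.

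p53 is a transcription factor that is stabilised by DNA damage and other stress and switches on genes of cell cycle arrest, repair and cell death. p21 binds cyclin-CDK complexes and stops the cell cycle. Its gene is a direct p53 target, and it is also induced by other signals, including glucocorticoids and cytokines. Mdm2 is the ubiquitin ligase that degrades p53 and is itself a p53 target, which closes a negative feedback loop, and Ccng1 encodes cyclin G1, another p53 target. The Gadd45 proteins are small stress sensors that bind p21, PCNA and the kinase Map3k4. Gadd45a is the classic DNA damage gene of the 3, while Gadd45b and Gadd45g respond mainly to cytokines and growth signals.

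The sequence before the gene start is shown for Cdkn1a and Ccng1, the p53 targets here with a p53 response element in it. The 250 bases before each start listed in RefSeq (build GRCm38.p6) were searched on both strands for the p53 response element, taken as its 2 consensus decamers side by side with at most 1 mismatch in all. One of the 2 starts of Cdkn1a held it, 51 to 32 bases before the start, and so did Ccng1, 195 to 176 bases before the start. Each had 1 mismatch. Among 32851 such windows of all genes, 25 held it (0.0761%). The windows of Cdkn1a and Ccng1 are shown 5′ to 3′ on the strand of the gene, with the p53 element in capitals.
Cdkn1a first start, chr17:29090729-29090978 (+ strand): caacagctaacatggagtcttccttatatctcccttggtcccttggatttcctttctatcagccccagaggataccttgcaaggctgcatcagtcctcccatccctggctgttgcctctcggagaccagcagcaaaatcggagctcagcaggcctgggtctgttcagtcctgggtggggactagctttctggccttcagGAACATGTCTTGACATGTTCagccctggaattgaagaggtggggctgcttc
Cdkn1a second start, chr17:29093519-29093768 (+ strand): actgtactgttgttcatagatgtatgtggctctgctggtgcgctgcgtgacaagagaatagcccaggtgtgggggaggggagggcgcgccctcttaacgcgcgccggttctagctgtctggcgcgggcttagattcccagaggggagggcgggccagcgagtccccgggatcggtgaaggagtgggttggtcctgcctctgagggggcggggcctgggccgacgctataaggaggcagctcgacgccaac
Ccng1, chr11:40755287-40755536 (- strand): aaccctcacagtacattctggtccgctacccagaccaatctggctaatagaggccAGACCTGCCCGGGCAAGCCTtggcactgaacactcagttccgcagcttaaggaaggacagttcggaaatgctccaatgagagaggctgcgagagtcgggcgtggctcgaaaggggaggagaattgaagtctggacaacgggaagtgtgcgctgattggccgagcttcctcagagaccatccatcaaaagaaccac
The second start of Cdkn1a and the windows of Gadd45a, Gadd45b, Gadd45g and Mdm2 held no such run of letters, which says nothing of elements elsewhere. The glucocorticoid receptor half-site AGAACA was in 0 of the 7 windows, against 16.1% of all windows, TATAAA was in 2 of 7, those of Gadd45b and Gadd45g, against 12.4%, and CCAAT in 5 of 7, against 33.8%. A match is a description of the letters and not a site shown to be bound.

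Cdkn1a was the 1 member that passed the test of differences over time. On its lead probe set the signal was 2252.2 without an injection. In the control arm it was 3737.5 at 0.5 h, 6301 at 1 h, 6565.1 at 2 h, 8673 at 3 h, 7606 at 4 h, 5852.8 at 5 h and 2974.8 at 12 h. In the aldosterone arm it was 3904.6 at 0.5 h, 7645.7 at 1 h, 10743.8 at 2 h, 5910.8 at 3 h, 8136.9 at 4 h, 7641.9 at 5 h and 2874.8 at 12 h. Both arms were low at 0.5 h, high from 1 to 5 h and low again at 12 h. On the normalized log2 scale all 10 arrays from 1 to 5 h (12.55 to 13.33) lay above the arrays at 0, 0.5 and 12 h, without overlap. This split of the times was drawn from the course of Cdkn1a itself. It held in 0.314% of the 22286 tested probe sets, a share that describes the pattern and does not test it. The pair at 0.5 h (11.99 and 12.00) in turn lay above the pair at 12 h (11.58 and 11.63).

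**Figure D1:**
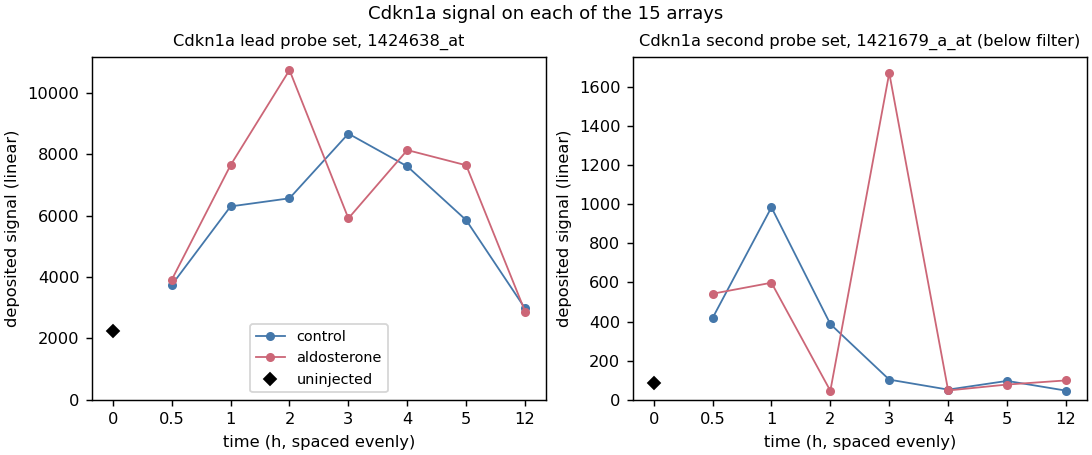
Deposited linear signal of the 2 Cdkn1a probe sets (y axis) on each of the 15 arrays against time in h (x axis, evenly spaced), with control arrays in blue, aldosterone arrays in red and the uninjected array as a black diamond. On the lead probe set both arms rise after 0.5 h and are at 2974.8 and 2874.8 at 12 h, while the dim second probe set follows another course.

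The time means of Cdkn1a ran in the order 12 h, 0.5 h, 5 h, 1 h, 3 h, 4 h and 2 h, from 11.60 to 13.03, a 2.69-fold range. The arms differed at single times with an SD of 0.36 on the log2 scale (n = 7 times). The means from 1 to 5 h lay between 12.70 and 13.03, and the order among them was not tested. By limma's moderated F over the 7 times the probe set was called (adjusted p = 0.0249). It was 1 of 10 tested probe sets of these genes, and 1.92% of all tested probe sets were called. At an unadjusted p under 0.05 there were 3 of the 10, against 18.9% of all. The spread in this test is that between both arms at one time, scanned on the same day, and so leaves out any variation they share. The adjusted p was 0.0308 with scan day as a block and 0.00471 with the Gapdh ratio as a covariate. It was 0.0320 without the 1 h pair that carried lung transcripts. The call was lost without the 0.5 h pair (adjusted p = 0.0803), without the 12 h pair (0.141) and without the variance trend (0.127).

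Times scanned on the same day were compared within each arm. The station number of their arrays in the experiment files could still differ. The arrays at 0, 0.5, 3 and 12 h and the control array at 5 h had station 2, and the others station 1. Comparisons of 4 with 12 h, and in controls of 2 with 5 h, thus also crossed stations. The part of the station was not tested. On the day that held the 0.5 and 3 h arrays, Cdkn1a was 2.20-fold higher at 3 h in controls and 1.49-fold higher with aldosterone. On the day that held the 1, 4 and 12 h arrays, it fell by 1.22 from 4 to 12 h in controls and by 1.37 with aldosterone, on the log2 scale. On the day that held the 2 and 5 h arrays, it fell by 0.18 and by 0.49. The arrays at 12 h were both below all 12 earlier timed arrays, as were those of 1.83% of tested probe sets. Against 0.5 to 5 h the difference at 12 h was -1.10 ± 0.27 (log2, SE, n = 2 against 12 arrays), which did not pass over all probe sets by limma (adjusted p = 0.183; 0 of the 10 called, against 0.0628% of all). It was the 1 of the 10 with an unadjusted p under 0.05, against 9.32% of all. Without the 0.5 h pair, the other low time of Cdkn1a, the difference was -1.25 and passed (adjusted p = 0.0221; 0.0718% of all called). The 2 arrays at 12 h share a time and a scan day, and these fits count them separately. A straight slope from 0.5 to 5 h was 0.10 ± 0.06 per h and did not pass (limma adjusted p = 0.641). None of the 10 had a called slope (0.153% of all were), and 0 had an unadjusted p under 0.05 (9.17% of all).

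The second Cdkn1a probe set did not share this course. Its mean signal over the 15 arrays, 350.3, was under the filter. In controls it ran from 46.5 at 12 h to 984.1 at 1 h, and with aldosterone from 45.7 at 2 h to 1671.5 at 3 h. The 3 h pair differed by 2.70 (log2), higher with aldosterone, where the lead probe set differed by -0.55. The correlation of the 2 probe sets over the 15 arrays was 0.09.

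None of the Gadd45 probe sets passed the test of time. Gadd45b on its lead probe set had signals of 693.7 and 582.8 at 0.5 h in the control and aldosterone arm. These were its lowest values, below the 1166.8 of the uninjected array. At 2 h the signals were 1534.3 and 1726.2, and at 12 h 1018.1 and 927.1. The normalized time means had a 2.54-fold range, highest at 2 h (arm differences with an SD of 0.32, n = 7). This did not pass over all probe sets (limma F, adjusted p = 0.0674; unadjusted 0.00177), and without the 0.5 h pair the range fell from 1.34 to 0.64 on the log2 scale (adjusted p = 0.505). From 0.5 to 3 h on a shared scan day it was 2.16-fold higher in controls and 2.67-fold higher with aldosterone.

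The other Gadd45b probe sets went less closely together. On the second the control signal was 245.7 at 0.5 h and 1821.5 at 1 h, while the aldosterone signal was 1279.1 at 0.5 h and 664.2 at 1 h. The arms thus stood in opposite order at those times, by 2.00 and -1.16 on the log2 scale (aldosterone minus control). Its highest time mean was also at 2 h and its lowest also at 0.5 h, with a 2.23-fold range (limma F, adjusted p = 0.582). The low mean at 0.5 h came from the control array (8.42). The aldosterone array at 0.5 h (10.43) was above those of its arm at 1, 4, 5 and 12 h. Over the 15 arrays the correlation of the second with the lead probe set was 0.57. That of the dim last probe set, the third, with the lead was 0.09.

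Gadd45a had signals between 1033.3 and 1588.1 in controls (median 1279.7) and between 1140 and 1870 with aldosterone (median 1213.7), with 1397.7 in the uninjected heart. The arms overlapped. Its time means had a 1.59-fold range, highest at 1 h and lowest at 0.5 h, and the time effect did not pass (limma adjusted p = 0.508). Of the 6 lead probe sets it was the one with the highest correlation with the Gapdh ratio (r = 0.82, n = 15 arrays) and with the summed fibroblast markers (r = 0.78). The part of either in its values was not tested.

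Gadd45g had signals from 390.3 to 1318.4 in controls (median 840.8) and from 593.2 to 1082.7 with aldosterone (median 937.5). Its lowest and highest values were the control arrays at 4 and 3 h, so it varied more within the control arm than between the arms. The time means had a 1.51-fold range (arm differences with an SD of 0.49) and did not pass (limma adjusted p = 0.664).

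Mdm2 and Ccng1 varied less over time on their lead probe sets. Mdm2 had 4327.9 in the uninjected heart, from 5893.8 to 7625.5 in controls (median 6547) and from 6041.9 to 9544.9 with aldosterone (median 7337.2). All 14 timed arrays lay above the uninjected one on the normalized scale. The time means had a 1.32-fold range with the highest at 12 h (arm differences with an SD of 0.20; limma F, adjusted p = 0.463). The second probe set of Mdm2 had its highest mean at 5 h and a 1.26-fold range (adjusted p = 0.908), and its correlation with the lead was 0.31. The third, under the filter, ran from 35.8 to 518.5 in controls and from 68.2 to 626.1 with aldosterone.

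Ccng1, the other gene with a p53 element in its window, had signals from 68234.2 to 95258.4 in controls (median 83227.1) and from 75369.4 to 104147.7 with aldosterone (median 91980.1) on its lead probe set. The uninjected array had 62544.4. The time means had a 1.10-fold range (arm differences with an SD of 0.20; limma F, adjusted p = 0.925), and those of the second probe set a 1.12-fold range (adjusted p = 0.919).

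**Figure D2:**
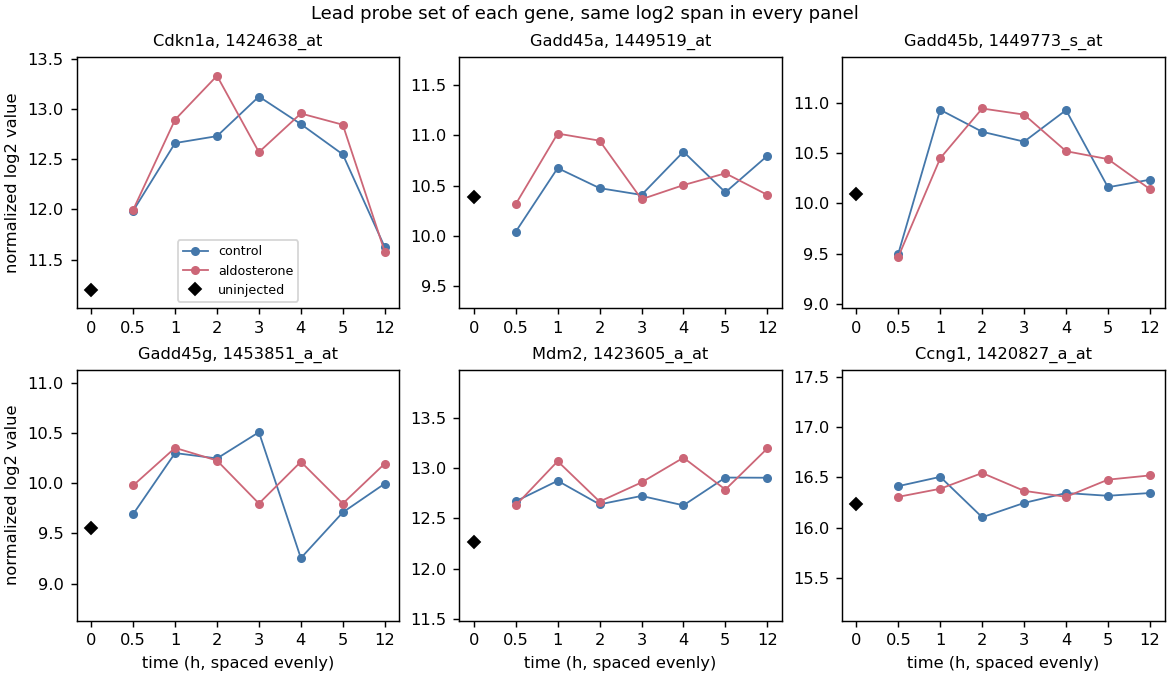
Normalized log2 value of the lead probe set of each gene (y axis, the same span in every panel) against time in h (x axis, evenly spaced), with control in blue, aldosterone in red and the uninjected array as a black diamond. Cdkn1a and Gadd45b leave their 0.5 h level in both arms, while Mdm2 and Ccng1 stay within a 1.32-fold and a 1.10-fold range of time means.

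The third Ccng1 probe set stood apart from the others. Its signals ran from 34059 to 73220.7 in controls and from 34389.9 to 72859.4 with aldosterone. Its time means had a 2.15-fold range, highest at 3 h and lowest at 4 h (limma F, adjusted p = 0.0585; unadjusted 0.00132). It was called without the 1 h pair (adjusted p = 0.0369; 1.55% of all called), without the 2 h pair (0.0164; 4.08%) and with array weights (0.0383; 2.39%). Its values moved with the Gapdh ratio (r = -0.90, n = 15 arrays), where the lead and second probe sets had 0.36 and 0.35. The 6 arrays with the highest ratios (at or above 2.17) had signals from 34059 to 42388.9 and the other 9 from 40217.2 to 73220.7. The arrays at 0.5 and 3 h shared a scan day and a chip lot held by no other array, with ratios from -0.23 to 0.52. The parts of ratio, scan day and lot were not tested apart. With the ratio as a covariate the adjusted p was 0.431, and with scan day as a block 0.901.

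**Figure D3:**
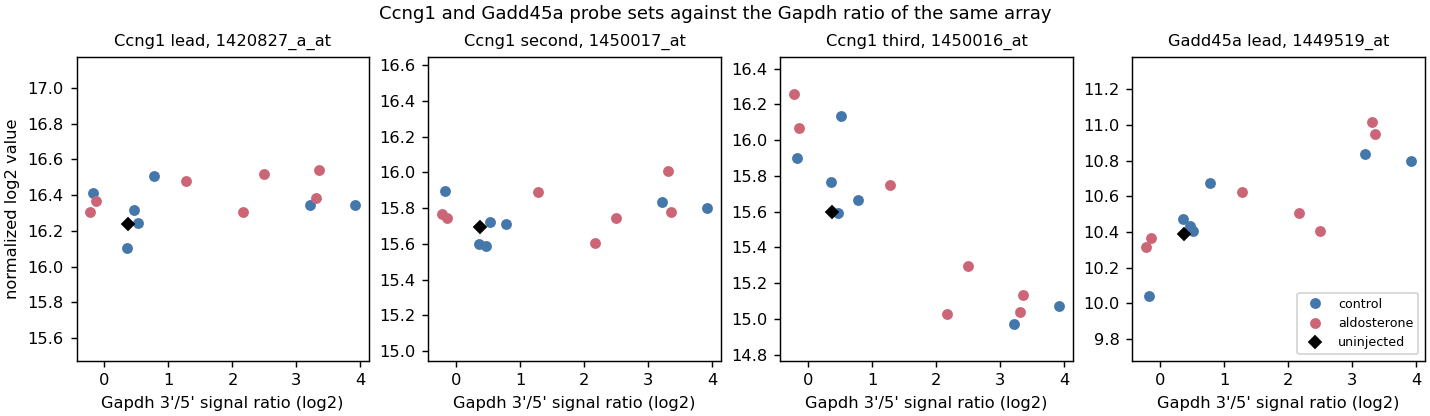
Normalized log2 values of the 3 Ccng1 probe sets and of Gadd45a (y axes, the same span in every panel) against the log2 Gapdh 3′/5′ signal ratio of the same array (x axis), 1 point per array. The third Ccng1 probe set falls as the ratio rises (r = -0.90), the lead and second do not, and Gadd45a rises with it (r = 0.82).

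Aldosterone was compared with control at the same time to ask whether these genes respond to the hormone. None of the 10 tested probe sets was called over the 7 times by limma, and 0 had an unadjusted p under 0.05. Over all 22286 tested probe sets 0 were called (0%), with 988 at an unadjusted p under 0.05 (4.43%). The 10 mean differences ran from -0.08 to 0.14 on the log2 scale, with 7 above 0, and the median was 0.08 against 0.01 over all probe sets. For all 10 the 95% limma interval of the mean over 7 times lay within a 2-fold change in either direction, and for 9 within 1.5-fold. These intervals do not cover single times or the 3 dimmer probe sets.

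Cdkn1a differed between the arms by 0.09 (SD 0.36, n = 7 times, higher with aldosterone in 5 of 7; exact sign-flip p = 0.484). The single times ran from -0.55 at 3 h to 0.60 at 2 h, so the arms crossed. Mdm2 had the smallest p of the 6 lead probe sets, with 0.14 (SD 0.20, higher in 5 of 7; exact p = 0.125). With the deposited scaling it was 0.18 (6 of 7; exact p = 0.0469). With 7 times the smallest exact two-sided p is 0.0156, and 6 lead probe sets were compared. Ccng1 had 0.09 (SD 0.20, 4 of 7; exact p = 0.250), Gadd45a 0.07 (SD 0.34, 4 of 7; exact p = 0.562), Gadd45b -0.03 (SD 0.32, 3 of 7; exact p = 0.781) and Gadd45g 0.12 (SD 0.49, 5 of 7; exact p = 0.531).

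**Figure D4:**
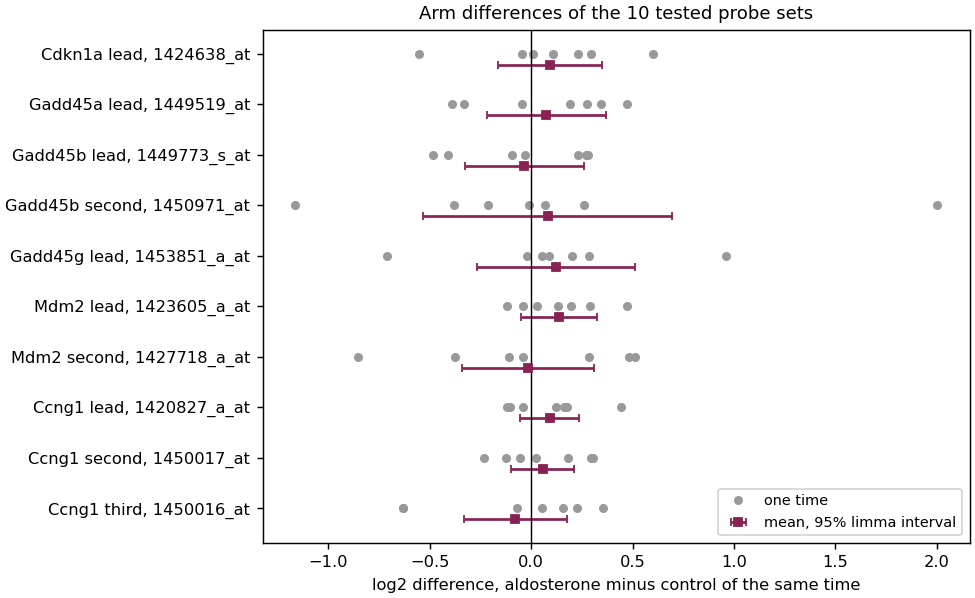
Log2 difference between the aldosterone and the control array of the same time (x axis) for the 10 tested probe sets (y axis), with a grey point for each of the 7 times and a square for the mean with its 95% limma interval. Every interval includes 0, and the widest belongs to the second Gadd45b probe set, whose points at 0.5 and 1 h lie at 2.00 and -1.16.

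Early and later hours were also compared between the arms. At 0.5 to 2 h none of the 10 probe sets was called (limma, smallest adjusted p = 0.505), and 0 had an unadjusted p under 0.05, against 10.2% of all tested probe sets, of which 0% were called. Gadd45a had the highest value, 0.36 ± 0.18 (SE, n = 3 times; unadjusted p = 0.0657), higher with aldosterone at each of the 3 times. With the Gapdh ratio as a covariate it was 0.18. Cdkn1a had 0.28 ± 0.18 and -0.04 with that covariate. Without the 0.5 h pair 1 of the 10 was called at 1 and 2 h, as were 228 of all 22286 probe sets (1.02%). It was the third of Ccng1, whose difference was -0.63 at both times (log2, lower with aldosterone) and which moved with the Gapdh ratio. At 3 to 5 h none was called (smallest adjusted p = 1.00; 0% of all called), and Cdkn1a had -0.05 ± 0.18. The difference of the windows was not called for any of the 10 either (smallest adjusted p = 0.773; 0% of all called). It was -0.33 ± 0.25 for Cdkn1a and -0.43 ± 0.25 for Gadd45a. At 3 to 5 h and for the difference, 0 of the 10 had an unadjusted p under 0.05, against 3.3% and 6.7% of all tested probe sets.

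The uninjected heart, a single array with no replicate check, was below all 14 timed arrays for 3 of the 10 tested probe sets, the lead of Cdkn1a, the second of Gadd45b and the lead of Mdm2. Over all tested probe sets 15.6% were below and 13.7% above all timed arrays. Averaged over the timed arrays, Cdkn1a was 2.54-fold and Mdm2 1.48-fold over the uninjected value on their lead probe sets. The other tested Mdm2 probe set was 1.08-fold over it, with 11 of 14 timed arrays above the uninjected value. The dim Mdm2 probe set, under the filter, stood at 0.75-fold, with 2 of 14 timed arrays above the uninjected value. Gadd45b was 3.43-fold over it on its second probe set but 1.26-fold on its lead probe set. Injection, time and animal cannot be told apart here.

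Other genes of the p53 pathway and of the cell cycle, with binding partners of Gadd45 and p21, were read on their lead probe sets. Of 69 genes in 9 lists, 63 matched a single symbol and 48 were tested. None of the 48 was called by limma for the time effect, against 1.69% of all 11567 genes tested, and 6 had an unadjusted p under 0.05 (12.5%, against 18% of all genes). The median range over time was 0.54 (log2) for the 48 and 0.59 for all genes. The 6 were in the lists of cell cycle arrest (3 of 6 tested) and of metabolic and antioxidant targets (3 of 7). Sesn1, a sestrin that restrains mTORC1, had a 1.74-fold range, lowest at 0.5 h and highest at 4 h (adjusted p = 0.0525). Trp53inp1, a stress-induced cofactor of p53, had a 1.74-fold range with the same times (adjusted p = 0.128). Ccng2, the FoxO-regulated relative of Ccng1, had 1.62-fold, also from 0.5 to 4 h (adjusted p = 0.175). The kinase gene Plk2 had 1.89-fold, the CDK inhibitor Cdkn1c 1.76-fold and the peroxidase Gpx1 1.58-fold, with adjusted p of 0.208, 0.245 and 0.250.

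**Figure D5:**
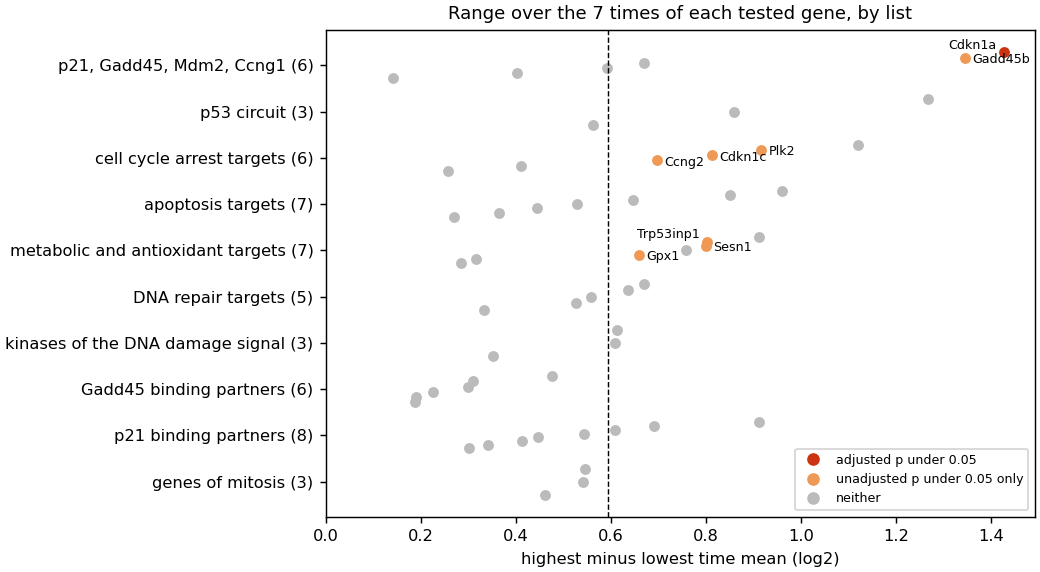
Range of the 7 time means (x axis, highest minus lowest, log2) of each tested gene by list (y axis, number of tested genes in brackets), with the median over all genes as a dashed line. Cdkn1a is the 1 gene with an adjusted p under 0.05 (limma F), and the other named genes have an unadjusted p under 0.05.

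The remaining lists held 0 genes at an unadjusted p under 0.05 for time. These were the p53 circuit (3 tested), apoptosis targets (7), DNA repair targets (5), kinases of the DNA damage signal (3), Gadd45 binding partners (6), p21 binding partners (8) and genes of mitosis (3). The p53 gene itself, Trp53, was not tested, nor were Bax, Fdxr, Gls2 and Gdf15, as none had a probe set of a single symbol. Pmaip1 was below the filter. Genes of mitosis were mostly dim, with 3 of 8 above the filter. Between the arms 0 of the 48 were called and 2 had an unadjusted p under 0.05 (4.17%, against 4.28% of all genes). Bbc3, which encodes the p53-induced death protein PUMA, had a mean difference of 0.55 (SD 0.64, higher with aldosterone in 5 of 7 times). Cdkn1c had -0.31 (SD 0.41, higher in 1 of 7). At 0.5 to 2 h there were 7 of 48 at an unadjusted p under 0.05 (14.6%, against 10.1% of all genes), at 3 to 5 h 1 (2.08%, against 3.24%) and for the difference of the windows 8 (16.7%, against 6.46%), with 0 called in each. Of the 7 genes at 0.5 to 2 h, 2 were higher and 5 lower with aldosterone. Those higher were both of the p53 circuit. Ppm1d, the phosphatase that turns the p53 response off, had 0.55 at 0.5 to 2 h and -0.18 at 3 to 5 h. Mdm4, the partner of Mdm2 that holds p53 inactive, had 0.60 and -0.48, and Pml, the other tested gene of that list, 0.12 and 0.13. Those lower at 0.5 to 2 h were the mitotic genes Plk1 (-0.94) and Cdc20 (-0.75), the p53 target Phlda3 (-0.59), Cdkn1c (-0.49) and the cyclin gene Ccnd2 (-0.29). The Gapdh ratio also differed between the arms at 1 and 2 h, and its part in these values was not tested. For 12 h against the earlier times and for the slope from 0.5 to 5 h, 0 of the 48 were called (0.0778% and 0.156% of all genes), and 2 and 5 had an unadjusted p under 0.05 (8.59% and 9.7% of all genes).

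The course of each gene was set beside those of 11566 other genes by Pearson correlation over the 15 arrays. For Cdkn1a the closest were Ift122 (r = 0.91), Nlrp10 (0.90) and Smug1 (0.90), the highest of all, where the median r was 0.04. For Gadd45b the closest were Trp53inp1 (0.87), Mcf2l (0.84) and Cep83 (0.83). The closest to Gadd45a was Uba6 (0.92), to Gadd45g Ptpn1 (0.81), to Mdm2 Icam2 (0.86) and to Ccng1 Acadl (0.87). Among the 6 lead probe sets themselves the correlation was highest for Cdkn1a and Gadd45b (0.66), and Cdkn1a had 0.19 with Mdm2 and 0.09 with Ccng1. All these points share their arrays, scan days and RNA quality.

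Markers of the cell types a whole heart can hold were summed on each array for 11 lists. Their correlations with Cdkn1a ran from -0.44 (endothelium) to 0.47 (neutrophil), and with Gadd45b from -0.54 (endothelium) to 0.46 (fibroblast), over 15 arrays. The sums also differed between the arms at 1 h. Macrophage sums were 49170 in control and 77266.5 with aldosterone, and neutrophil sums 14893.5 and 42536.4. Erythroid sums went the other way, with 24432.2 and 14972.3. The part of these markers in the results was not tested. In whole hearts, more cells of a type and more RNA per cell cannot be told apart.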

How the data were processed

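Total RNA of whole mouse hearts was hybridised to Affymetrix mouse arrays. The deposited table holds a linear signal intensity for each probe set, and the submitters' processing notes name GCOS 1.2. The deposited intensity medians lay between 413.8 and 741.4 across arrays, a 1.79-fold range. Signals plus 167.8 (the 25th percentile of all) were put on a log2 scale and quantile normalized, so folds of dim probe sets are understated. The 22286 probe sets whose mean reached 526.7 were tested in limma 3.58.1 (R 4.3.3) with a variance trend and Benjamini-Hochberg adjustment over all of them, at 0.05. Aldosterone effects had time as a block. Time (moderated F), the slope and the 12 h difference had treatment as a covariate. In the slope and 12 h fits each array counted on its own. Single values had an exact sign-flip test over 7 times (128 flips). Scan days (3) were read from the deposited experiment files, where both arms of a time fell on one day. Symbols came from the platform annotation of 2016, in which 34958 probe sets had a single symbol, 932 several and 9211 none. Promoter windows are from RefSeq, and figures were drawn with matplotlib 3.10.9. Each fit was run on simulated data with independent noise for each array, which held no effect of scan day, chip lot or RNA quality. The number of arrays limits the precision. The genes and lists were chosen with earlier results of these data known. Genes outside the 6 were named by their rank of p within a list, up to 4 for time and 2 for aldosterone over 7 times. Others were named by the 3 highest correlations. The choice of the 7 genes at 0.5 to 2 h was outside that rule, by an unadjusted p under 0.05 in that window. Pml was added there as the other tested gene of its list. The motif searches and the Gapdh split of arrays were added after the data had been seen.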

Additional observations from a re-analysis of the deposited data

Results flagged for a closer look

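Each of the 13 probe sets was examined in both arms, 26 groups of 7 arrays, for a single array far from the others, by Dixon's criterion. Chance marks about 1 in 20 groups, and 2 were marked. The second Mdm2 probe set was low on the aldosterone array at 2 h, with a log2 value of 11.45 (signal 2573.8), the nearest other aldosterone array being at 12.00. The third Mdm2 probe set, which is dim, was low on the aldosterone array at 3 h, with 7.88 (signal 68.2), the nearest being at 8.99. The lead probe set of Mdm2 was not marked in either arm. These arms span 7 times, so a distant array can also be a distant time.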

How the results depend on the processing

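Arrays have no read depth, and the 3 dimmer probe sets are limited by their signal over background. For the time effect 1 of the 10 probe sets was called, 0 without the variance trend, 2 with array weights (Cdkn1a and Ccng1), and 0 to 2 when 1 time was left out. The 6 other settings, the Gapdh ratio and scan day among them, called 1, which was Cdkn1a. Leaving out 1 time or array gave 0 to 1 calls for aldosterone at 0.5 to 2 h and 0 to 1 for 12 h. The other counts of calls between the arms and for the slope were 0 in each setting run. With the deposited scaling 1 lead probe set (Mdm2) had an exact p under 0.05 and 3 rather than 2 lay below all timed arrays without an injection (Cdkn1a, Mdm2 and Ccng1). Without time as a replicate block the aldosterone count was also 0. Over all probe sets the 429 called for time became 39 without the variance trend, 239 without a filter, 219 given the Gapdh ratio and 109 when scan day was blocked, and 90 to 910 with 1 time left out. The 34 called for the slope became 13 without the variance trend or with time as a random block, 59 with array weights and 103 with the Gapdh ratio, and 1 to 19 without the 0.5, 2, 4 or 5 h pair. The 14 called for 12 h became 1 with the Gapdh ratio, scan day or the stricter filter, 2 with time as a random block, 25 without a filter and 33 with a pseudocount of 16, and 2 to 25 without the 1, 3 or 5 h pair or a 12 h array. Without the 0.5 h pair 228 were called at 0.5 to 2 h and 37 for the difference of the windows, against 0.

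Small uncalled differences changed sign. With the Gapdh ratio as a covariate Gadd45a had -0.0039 over 7 times, -0.0072 per h and -0.31 at 12 h. Cdkn1a had -0.043 at 0.5 to 2 h, 0.0017 at 3 to 5 h and 0.045 for the difference of the windows. Ccng1 had -0.13 at 0.5 to 2 h and Gadd45g -0.25 for the difference, and -0.040 with array weights. With the deposited scaling Gadd45g had -0.0059 at 0.5 to 2 h, Ccng1 -0.040 for the difference and 0.0027 per h, and Gadd45a -0.013 per h. The slope of Gadd45a was also -0.0019 with array weights and -0.023 with scan day as a block, and its 12 h difference -0.16 with scan day. The cause was not tested.

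With 1 time left out, sign changes lay within these ranges. Over 7 times Gadd45b had -0.086 to 0.041 and Gadd45g -0.018 to 0.26. At 0.5 to 2 h Gadd45b had -0.26 to 0.10, Mdm2 -0.0064 to 0.11 and Ccng1 -0.11 to 0.17. At 3 to 5 h Cdkn1a had -0.22 to 0.20, Gadd45a -0.19 to 0.073, Gadd45b -0.070 to 0.27 and Gadd45g -0.31 to 0.52. For the difference Gadd45b had -0.053 to 0.37, Gadd45g -0.42 to 0.42, Mdm2 -0.053 to 0.24 and Ccng1 -0.086 to 0.19. Per h Cdkn1a had -0.029 to 0.19, Gadd45a -0.068 to 0.067, Gadd45b -0.088 to 0.25, Mdm2 -0.0037 to 0.054 and Ccng1 -0.025 to 0.0056. At 12 h Gadd45a had -0.22 to 0.32.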
